A study of Mus musculus with 6 samples.

Results

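The antioxidant, glutathione and metallothionein genes described here were 39 genes chosen by symbol. No measured value enters the rule, but the list was drawn up with earlier results of these data known. They were 39 of the 23282 entries in the gene count tables of 6 mouse forebrain libraries, and all 39 were among the 13771 genes with enough counts to be tested. The mice were male wild-type C57BL/6J animals of 8 to 10 weeks, fed either a normal chow diet (NCD, 3 libraries) or a high-fat diet with 60% of its calories from fat (HFD, 3 libraries) for 10 days. The forebrain was taken without the olfactory bulbs and cerebellum, 1 hemisphere of it was used for RNA, and reads were made from the 3′ ends of polyadenylated transcripts. The labels do not say that the libraries of a diet came from separate animals, so p-values measured only the spread between these libraries. The tissue was bulk, so fewer cells of a type and less RNA per cell cannot be told apart.

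Cells handle superoxide and peroxides in steps. Superoxide dismutases turn superoxide into hydrogen peroxide, which catalase splits into water and oxygen and which glutathione peroxidases and peroxiredoxins reduce with electrons that come mainly from glutathione and thioredoxin. The transcription factor NRF2 (Nfe2l2) is held in the cytoplasm and marked for degradation by KEAP1, and once released it binds antioxidant response elements of genes for glutathione synthesis, thioredoxin reductase and quinone reductase. Metallothioneins are small cysteine-rich proteins that bind zinc and copper. Their genes carry metal response elements, bound by the zinc sensor MTF1. In brain, much of the glutathione machinery and of Mt1 and Mt2 is found in astrocytes, and Mt3 is the metallothionein typical of neural tissue.

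Library totals ran from 6842785 to 9689372 counts. Levels are given as CPM, counts scaled to a common library size with edgeR's TMM factors, and 3 counts were worth 0.316 to 0.431 CPM, the limit that a count of 0 allows by counting error alone. Each transcript gave reads only near its 3′ end, so CPM was not divided by length and no order of levels between genes is drawn from it. Neuron, astrocyte and microglia markers were detected in every library at similar summed levels. Astrocyte markers summed to 5020 to 5360 CPM on the NCD and 4970 to 5220 CPM on the HFD. Oligodendrocyte markers summed to 7710 CPM in NCD replicate 3, 8830 and 8880 CPM in NCD replicates 1 and 2, and 8660 to 9350 CPM on the HFD. Ependyma markers summed to less in every HFD library than in any NCD library, and Rsph1 had an unadjusted p of 0.00679 (edgeR). Sums of choroid plexus, endothelium and meninges markers overlapped between the diets. The choroid plexus marker Kcnj13 was higher on the HFD (unadjusted p = 0.0273). HFD replicate 3 stood apart. Its pituitary markers summed to 1280 CPM against 5.32 to 13.8 CPM in the other 5 libraries, and its short transcripts were raised, as described with the lengths of the members. Erythroid markers summed to 609 to 738 CPM on the NCD and 761 to 1190 CPM on the HFD. Of the 7 tested, 6 were higher on the HFD at an unadjusted p under 0.05, against 1.68% of all genes tested. These 6 are not separate signals, since Hbb-bs and Hbb-b1 held nearly equal counts (1316 and 1298 in NCD replicate 1). Hbb-bt and Hbb-b2 did so too (253 and 232), and the sum may count the same reads more than once. Liver markers summed to 11.2 to 54.8 CPM on the NCD and 6.18 to 13.4 CPM on the HFD. All 6 tested were lower on the HFD at an unadjusted p under 0.05, against 2% of all genes tested, with a median log2 fold change of -1.71. The sum was highest in NCD replicate 2. In the edgeR fit without that library the unadjusted p was over 0.05 in Apoa1 (0.436), Apoa2 (0.243) and Cyp2e1 (0.223). It stayed under 0.05 in Alb (0.00936), Fgb (0.0108) and Ahsg (0.0467). The part of these differences in the results below was not tested.

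No member passed the test of the diets. With edgeR's quasi-likelihood model and p-values adjusted by Benjamini-Hochberg across the 13771 genes, 0 of 39 members and 0% of all genes had an adjusted p under 0.05, and DESeq2 also gave 0 members and 0 genes. At an unadjusted p under 0.05, 4 members (10.3%) were higher on the HFD, against 1.68% of all genes tested, and 0 were lower, against 2%. The 4 were Mt3, Nfe2l2, Gpx4 and Gstm5, each with an adjusted p of 0.979. The study's thresholds were a change of at least 1.5-fold with an unadjusted p under 0.05. Applied to this edgeR fit, they gave 0 members higher, against 0.523% of genes, and 0 lower, against 0.748%. The study normalized its counts by quantiles, so its own gene calls can differ from these. The median log2 fold change of the members was 0.035, and that of all genes tested was -0.0033. The log2 fold change was above 0 in 26 members (66.7%) and in 49.2% of all genes. It was above 0 in 22 to 29 members with 1 library left out, the fewest without HFD replicate 3 and the most without NCD replicate 2.

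**Figure D1:**
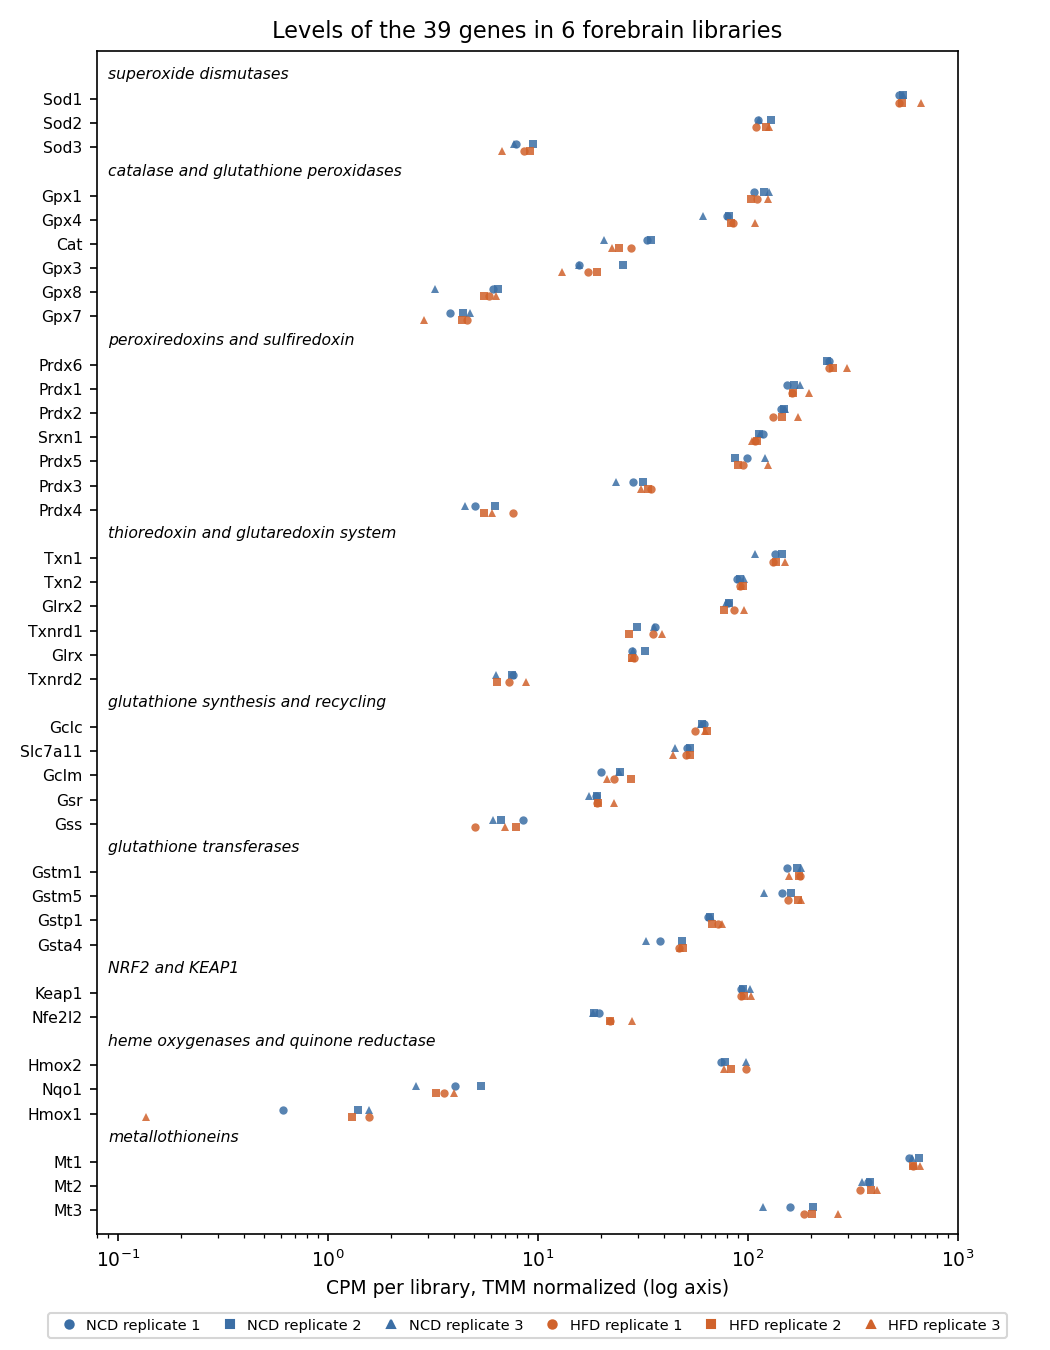
Levels of the 39 genes in each of the 6 libraries, as TMM-normalized CPM on a log axis, grouped by role, with NCD libraries in blue and HFD libraries in orange. In most genes the 6 points lie close together, and the widest scatter is that of Hmox1, which had 1 to 15 counts per library.

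The replicates set narrow limits for most of these genes. The 95% interval of the fold change lay within 1.5-fold in either direction for 28 of the 39 members and within 2-fold for 38. The exception was Hmox1, with few counts. The log2 fold change was smaller than 0.1 in size in 21 members. The median standard error of a member was 0.13 on the log2 scale, and 0.16 over all genes tested. The mean level was over 100 CPM in 14 members and under 10 CPM in 8. Together the members took 0.386 to 0.441% of the counts of a library. The lowest share was that of NCD replicate 3 and the highest that of HFD replicate 3.

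**Figure D2:**
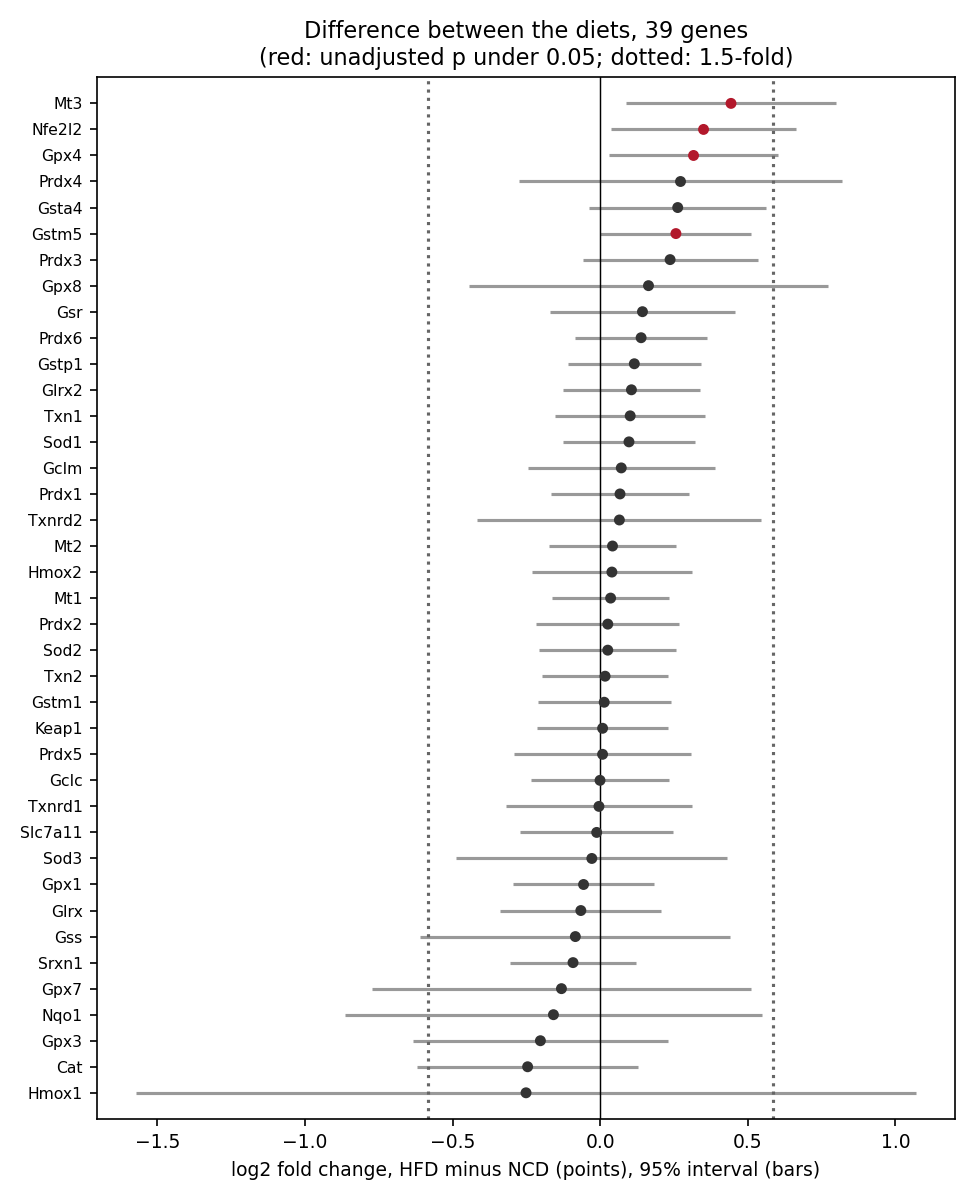
Log2 fold change of each of the 39 genes, HFD minus NCD, with its 95% interval from edgeR, ordered by size, with dotted lines at 1.5-fold. The 4 genes in red, Mt3, Nfe2l2, Gpx4 and Gstm5, have intervals just above 0, and those of the other 35 genes cover 0.

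The groups did not overlap in 5 members. Gstp1, Gsr, Gpx4 and Nfe2l2 were higher in all 3 HFD libraries than in any NCD library (10.3% of members, against 4.27% of all genes tested). Srxn1 was lower in all 3 (2.56%, against 4.56%).

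The metallothionein genes lie side by side on the plus strand of chromosome 8 (GRCm38, GENCODE annotation), Mt3 at chr8:94152607-94154146, Mt2 at chr8:94172664-94173568 and Mt1 at chr8:94179082-94180327. Their promoters, taken from RefSeq (GRCm38.p6, 250 bases before to 50 after the start, plus strand, 5′ to 3′), are shown because the number of motif matches differs among the 3 neighbours. Capitals mark matches to the metal response element, searched as TGCACNC or TGCGCNC, and to the antioxidant response element, searched as TGACNNNGC, on both strands. Where the core lies on the other strand, the capitals show its reverse complement.
Mt1, chr8:94178839-94179138: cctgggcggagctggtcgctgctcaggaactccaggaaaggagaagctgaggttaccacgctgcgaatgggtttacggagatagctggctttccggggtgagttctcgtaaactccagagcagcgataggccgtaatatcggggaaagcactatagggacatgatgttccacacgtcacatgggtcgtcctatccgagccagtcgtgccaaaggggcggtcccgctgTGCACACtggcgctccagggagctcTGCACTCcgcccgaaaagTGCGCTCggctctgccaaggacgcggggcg
Mt2, chr8:94172368-94172667: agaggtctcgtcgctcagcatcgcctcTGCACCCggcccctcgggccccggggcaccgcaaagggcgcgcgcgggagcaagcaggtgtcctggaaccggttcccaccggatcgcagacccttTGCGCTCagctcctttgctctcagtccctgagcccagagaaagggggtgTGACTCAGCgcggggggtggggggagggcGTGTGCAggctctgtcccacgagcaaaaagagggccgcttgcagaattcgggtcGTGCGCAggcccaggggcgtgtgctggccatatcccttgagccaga
Mt3, chr8:94152357-94152656: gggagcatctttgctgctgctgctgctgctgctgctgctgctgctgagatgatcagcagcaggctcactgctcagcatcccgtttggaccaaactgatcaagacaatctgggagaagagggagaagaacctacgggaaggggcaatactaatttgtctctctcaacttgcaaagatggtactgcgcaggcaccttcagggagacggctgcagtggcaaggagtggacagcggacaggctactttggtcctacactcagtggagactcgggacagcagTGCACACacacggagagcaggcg
The Mt1 window held 3 metal response element matches, at positions -23, 3 and 21 from the start. The Mt2 window held 4, at -223, -128, -50 and 5, and 1 antioxidant response element match at -79. The Mt3 window held 1 metal response element match, at 28. At least 1 match stood in 25.7% of all 32851 mouse promoters of the same length, and 3 or more in 1.97%. A match of letters is a description and does not show that a factor binds there. Each of these 3 windows was set on 1 annotated start, and Mt1 has transcripts of different lengths (longest 1085 bases, median 633). Matches near other starts may lie outside the windows, so the positions and numbers of matches hold for these windows alone.

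Mt3 had the highest log2 fold change of the 39 genes, and Mt1 and Mt2 had values near 0. The difference between the fold changes of these genes was not tested. Mt3 stood at 159, 205 and 119 CPM on the NCD and at 185, 203 and 269 CPM on the HFD. The groups overlapped, since NCD replicate 2 was above HFD replicates 1 and 2, and the ends of the range were NCD replicate 3 and HFD replicate 3. Its log2 fold change was 0.44 ± 0.17 (SE), 1.36-fold with a 95% interval of 1.06 to 1.74, with an unadjusted p of 0.0175 and an adjusted p of 0.979 in edgeR's quasi-likelihood test. Its adjusted p ran from 0.156 to 1 over the 15 alternative settings. Without NCD replicate 3 its log2 fold change was 0.27 (unadjusted p = 0.114), and without HFD replicate 3 it was also 0.27 (unadjusted p = 0.0929). Without NCD replicate 2 it was 0.65 (unadjusted p = 0.00121, adjusted p = 0.97), the one setting of those tried in which a member was past both 1.5-fold and an unadjusted p of 0.05.

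Mt1 stood at 586, 652 and 605 CPM on the NCD and at 613, 616 and 660 CPM on the HFD. These groups overlapped, and the log2 fold change was 0.035 ± 0.094 (SE), with a 95% interval of 0.893 to 1.18-fold. Mt2 stood at 374, 383 and 349 CPM on the NCD and at 342, 385 and 412 CPM on the HFD, with HFD replicate 1 the lowest of all 6. Its log2 fold change was 0.042 ± 0.10 (SE), with an interval of 0.886 to 1.20-fold. Mt2 is overlapped by Gm45774 on the other strand, which held 28.8% of the 75-base stretches at its 3′ ends, and whether the counting used strand was not given in the sources used here. The ratio of Mt1 to Mt2 counts stayed between 1.57 and 1.79 in the 6 libraries. The ratio of Mt3 to Mt1 ranged from 0.197 in NCD replicate 3 to 0.408 in HFD replicate 3, and was 0.272 and 0.314 in the other NCD libraries and 0.302 and 0.329 in the other HFD libraries.

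**Figure D3:**
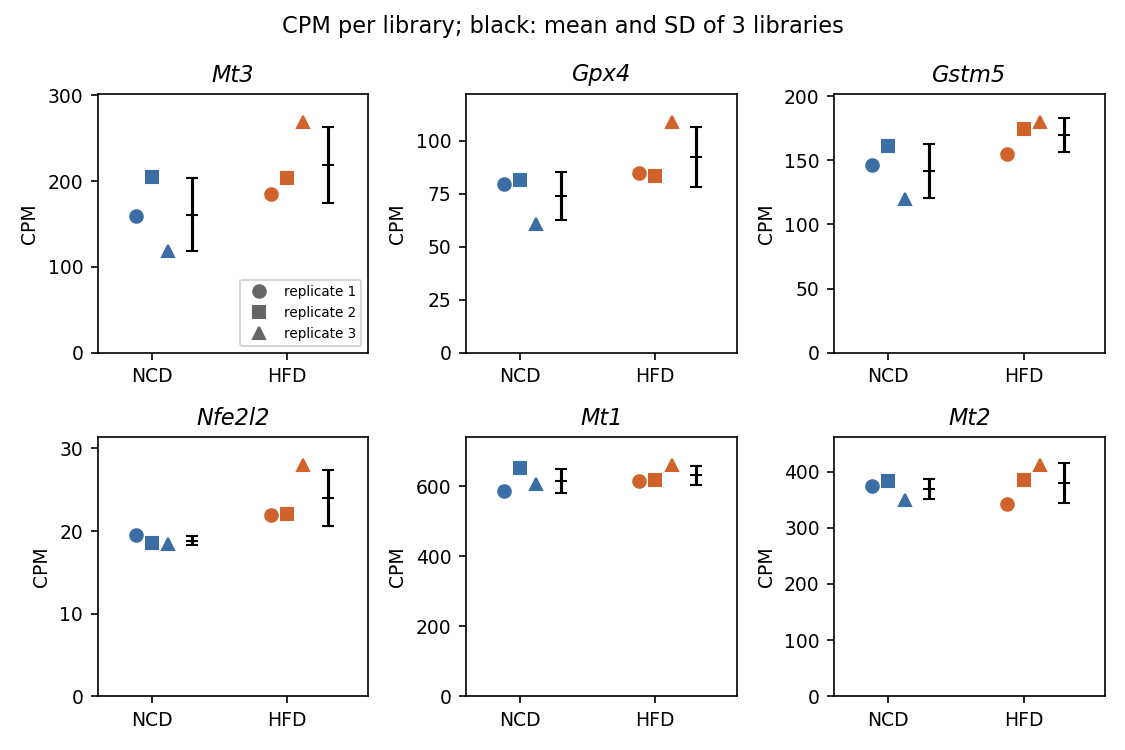
CPM in each library for 6 genes (Mt3, Gpx4, Gstm5, Nfe2l2, Mt1 and Mt2), with the mean and SD of the 3 libraries of each diet in black and axes that start at 0. Gpx4 and Nfe2l2 show no overlap between the diets, and HFD replicate 3 is the highest point in all 6 panels.

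Nfe2l2, which encodes NRF2, was higher in every HFD library than in any NCD library. Its gene lies on the minus strand at chr2:75675513-75704641. It stood at 19.5, 18.6 and 18.4 CPM on the NCD and at 22.0, 22.1 and 28.0 CPM on the HFD. The 3 NCD libraries were close together, and HFD replicate 3 was set off above the other 2. This gave a log2 fold change of 0.35 ± 0.15 (SE), 1.27-fold with a 95% interval of 1.03 to 1.58, with an unadjusted p of 0.0306 (edgeR, adjusted p = 0.979). The unadjusted p was 0.0585 with DESeq2, and it was over 0.05 without NCD replicate 1 (0.0506), 2 (0.0688) or 3 (0.0626) and without HFD replicate 3 (0.129). The log2 fold change was then 0.38, 0.34, 0.33 and 0.23. Keap1, the adaptor that holds NRF2 for degradation, stood at 93.2, 94.9 and 103 CPM on the NCD and at 92.7, 95.9 and 104 CPM on the HFD. Its groups overlapped almost fully, and its log2 fold change was 0.0082 ± 0.11 (SE), with an interval of 0.862 to 1.17-fold. Of its 3′ stretches, 11.1% were also found in Gm16754, which overlaps it on the other strand.

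Nqo1 and Hmox1, well-known targets of NRF2, did not pass the test, and neither did any other member. Both had few counts, with 25 to 50 per library for Nqo1, so nothing on NRF2 activity is drawn from them. Nqo1, the quinone reductase NAD(P)H dehydrogenase, stood at 4.06, 5.39 and 2.63 CPM on the NCD and at 3.59, 3.27 and 3.98 CPM on the HFD. The HFD libraries lay inside the NCD range, and its log2 fold change was -0.16 ± 0.33 (SE). Hmox1, the inducible heme oxygenase, had 5, 13 and 15 counts on the NCD, and its HFD libraries had 11, 12 and 1. These counts were too few for a narrow limit, and the 95% interval of its fold change ran from 0.336 to 2.10 around a log2 fold change of -0.25. Hmox2, the constitutive heme oxygenase, stood at 74.3, 78.3 and 98.6 CPM on the NCD and at 98.0, 83.1 and 77.4 CPM on the HFD. Its groups overlapped, with a log2 fold change of 0.040 ± 0.13 (SE). Its counts are uncertain, because 44.0% of its 3′ stretches were also found in Cdip1, which overlaps it on the other strand, or in Ppp4r2.

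Glutamate-cysteine ligase catalyses the first step of glutathione synthesis. Its catalytic subunit gene Gclc stood at 61.7, 60.9 and 59.9 CPM on the NCD and at 56.0, 63.8 and 62.5 CPM on the HFD. The group means were both 60.8 CPM, and the log2 fold change was -0.0005 ± 0.11 (SE). Its modifier subunit gene Gclm stood at 20.1, 24.6 and 24.3 CPM on the NCD and at 23.1, 27.8 and 21.4 CPM on the HFD, also overlapping, with a log2 fold change of 0.072 ± 0.15 (SE). Gsr, glutathione reductase, which returns oxidized glutathione to its reduced form, stood at 19.0, 19.1 and 17.6 CPM on the NCD and at 19.1, 19.3 and 23.1 CPM on the HFD. Its groups did not overlap only by a narrow margin, since HFD replicate 1 and NCD replicate 2 round to the same level, and its log2 fold change was 0.14 ± 0.15 (SE), with an unadjusted p of 0.348. Gss, glutathione synthetase, and Slc7a11, the cystine importer xCT, had log2 fold changes of -0.084 and -0.012. The summed level of these 5 genes was 153 to 164 CPM on the NCD and 154 to 172 CPM on the HFD.

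Glutathione transferases join glutathione to electrophiles, including products of lipid peroxidation. All 4 had a log2 fold change above 0, but Gstm1, at 0.014, was below 0 with library size alone and without NCD replicate 1, HFD replicate 1 or HFD replicate 2. Gstm5, of the mu class, lies on the plus strand at chr3:107895821-107898686 and stood at 146, 161 and 120 CPM on the NCD and at 155, 174 and 180 CPM on the HFD. The groups overlapped at 1 library, NCD replicate 2. Its log2 fold change was 0.26 ± 0.12 (SE), with a 95% interval of 0.0008 to 0.51 and a fold of 1.19, and it had an unadjusted p of 0.0493 (edgeR, adjusted p = 0.979). The unadjusted p was over 0.05 without NCD replicate 1 (0.0807) or 3 (0.229) and without HFD replicate 2 (0.12) or 3 (0.079). Without NCD replicate 3 its log2 fold change was 0.15.

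Gsta4, of the alpha class, which acts on 4-hydroxynonenal, stood at 38.2, 48.9 and 32.9 CPM on the NCD and at 47.1, 49.4 and 47.4 CPM on the HFD. NCD replicate 2 lay among the HFD libraries, and the log2 fold change was 0.26 ± 0.14 (SE, unadjusted p = 0.0811). Without NCD replicate 2 it was 0.44 (unadjusted p = 0.00867). Gstp1, of the pi class, stood at 65.0, 66.5 and 66.8 CPM on the NCD and at 72.3, 67.5 and 75.2 CPM on the HFD. The groups did not overlap, but its log2 fold change was 0.12 ± 0.11 (SE, unadjusted p = 0.291). Its near-identical neighbour Gstp2 and the pseudogene Gstp-ps shared 33.4% of its 3′ stretches, so its counts are uncertain. Gstm1 stood at 154, 172 and 179 CPM on the NCD and at 178, 175 and 157 CPM on the HFD, with a log2 fold change of 0.014 ± 0.11 (SE), and 15.9% of its 3′ stretches were shared with Gstm3, Gm8834 and Gstm2-ps1.

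The promoters of Nfe2l2 and Gstm5 are shown because both genes had an unadjusted p under 0.05 and both windows hold an antioxidant response element match. The source, window and marks are those used for the metallothioneins, and the Nfe2l2 sequence is that of the minus strand.
Nfe2l2, chr2:75704614-75704913: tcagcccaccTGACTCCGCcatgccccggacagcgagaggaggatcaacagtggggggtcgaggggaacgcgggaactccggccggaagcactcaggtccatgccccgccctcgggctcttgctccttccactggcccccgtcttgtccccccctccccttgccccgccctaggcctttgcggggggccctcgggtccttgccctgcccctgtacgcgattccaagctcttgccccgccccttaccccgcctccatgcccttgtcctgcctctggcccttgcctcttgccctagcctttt
Gstm5, chr3:107895604-107895903: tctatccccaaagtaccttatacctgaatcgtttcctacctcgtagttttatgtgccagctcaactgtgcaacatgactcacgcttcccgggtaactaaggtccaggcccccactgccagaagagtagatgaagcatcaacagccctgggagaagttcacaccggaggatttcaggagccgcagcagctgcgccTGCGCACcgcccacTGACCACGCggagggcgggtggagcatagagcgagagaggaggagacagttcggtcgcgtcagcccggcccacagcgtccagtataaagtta
The match stood at -240 in Nfe2l2 and at -42 in Gstm5, which also held a metal response element match at -56. RefSeq windows were at hand for 33 of the 39 members, all but Sod3, Prdx6, Hmox1, Gclc, Gsr and Gsta4. Of the 33 genes, 8 (24.2%) held an antioxidant response element match in at least 1 window, against 14.0% of all 27025 genes, and 11 (33.3%) held a metal response element match, against 28.2%. Counted by window, an antioxidant response element match stood in 17.8% of the 45 member windows, against 12.4% of all 32851. For the metal response element these shares were 28.9% and 25.7%. The 8 genes with an antioxidant response element match were Nfe2l2, Srxn1, Gstm5, Gclm, Prdx1, Mt2, Txnrd1 and Sod1. Their log2 fold changes ran from -0.092 in Srxn1 to 0.35 in Nfe2l2. Gclm held 3 metal response element matches as well, and Gpx4 held neither motif in any of its windows.

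Gpx4, the selenoenzyme that reduces phospholipid hydroperoxides in membranes and guards against ferroptosis, was the one glutathione peroxidase with an unadjusted p under 0.05. It lies on the plus strand at chr10:80047166-80056439 and stood at 79.8, 81.6 and 61.0 CPM on the NCD and at 84.8, 83.5 and 109 CPM on the HFD. The groups did not overlap, with NCD replicate 3 well below the rest and HFD replicate 3 well above. Its log2 fold change was 0.32 ± 0.13 (SE), 1.25-fold with a 95% interval of 1.02 to 1.52, with an unadjusted p of 0.0317 (edgeR, adjusted p = 0.979). It was 0.19 without NCD replicate 3 (unadjusted p = 0.164) and 0.19 without HFD replicate 3 (unadjusted p = 0.143). Gpx4-ps2 and AC122253.3 shared 50.4% of its 3′ stretches, and reads with several alignments were counted by the authors, so its count may hold reads of these copies.

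The other members of the glutathione peroxidase family, and catalase, did not pass at an unadjusted p of 0.05. Cat, the peroxisomal enzyme that splits hydrogen peroxide, stood at 33.3, 34.6 and 20.6 CPM on the NCD and at 27.7, 24.3 and 22.5 CPM on the HFD. NCD replicate 3 was the lowest of the 6 libraries and the other 2 NCD libraries were the highest. The difference on the log2 scale was -0.25 ± 0.18 (SE, unadjusted p = 0.184), and it was -0.45 (unadjusted p = 0.00821) without NCD replicate 3. Gpx3, the secreted glutathione peroxidase, stood at 15.8, 25.6 and 15.8 CPM on the NCD and at 17.4, 19.2 and 13 CPM on the HFD. NCD replicate 2 was the highest, and its log2 fold change of -0.20 ± 0.20 (SE) was 0.074 without that library. Gpx1, the major cytosolic peroxidase, stood at 107, 120 and 127 CPM on the NCD and at 111, 104 and 125 CPM on the HFD, overlapping, with a log2 fold change of -0.056 ± 0.11 (SE). Gpx7 and Gpx8, peroxidases of the endoplasmic reticulum, had log2 fold changes of -0.13 and 0.16 with 21 to 60 counts per library.

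Superoxide dismutases differed little. Sod1, the cytosolic copper-zinc enzyme, stood at 525, 547 and 550 CPM on the NCD and at 527, 542 and 666 CPM on the HFD. HFD replicate 3 alone was outside the range of the others. The log2 fold change was 0.098 ± 0.10 (SE) and was -0.015 without that library. Sod2, the mitochondrial manganese enzyme, and Sod3, the extracellular one, had log2 fold changes of 0.026 and -0.028, with intervals of 0.867 to 1.20-fold and 0.714 to 1.35-fold.

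Peroxiredoxins reduce peroxides through a reactive cysteine. Of the 6 peroxiredoxins, all had a log2 fold change above 0, from 0.0081 in Prdx5 to 0.27 in Prdx4, and the unadjusted p was at least 0.11 in each. Without HFD replicate 3, 3 of the 6 were above 0, and Prdx1, Prdx2 and Prdx5 had values of -0.020, -0.086 and -0.15. Prdx5 was also below 0 with library size alone (-0.012) and without NCD replicate 1 (-0.011) or 2 (-0.098). Prdx6, which also reduces phospholipid hydroperoxides, stood at 245, 238 and 243 CPM on the NCD and at 244, 256 and 299 CPM on the HFD. The groups overlapped at HFD replicate 1, and the log2 fold change was 0.14 ± 0.11 (SE). Prdx4, of the endoplasmic reticulum, had 41 to 58 counts per library and a log2 fold change of 0.27 ± 0.26 (SE). Prdx3, the mitochondrial form, stood at 28.5, 31.9 and 23.6 CPM on the NCD and at 34.5, 33.4 and 31.0 CPM on the HFD. The groups overlapped only in that NCD replicate 2 was above HFD replicate 3. On the log2 scale the difference was 0.24 ± 0.14 (SE, unadjusted p = 0.11), and 0.34 (unadjusted p = 0.0457) without NCD replicate 2. Prdx1 and Prdx2, of the cytosol, had log2 fold changes of 0.067 and 0.026, and Prdx5 was at 103 CPM on average on both diets.

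Srxn1, sulfiredoxin, which restores overoxidized peroxiredoxins, stood at 119, 113 and 115 CPM on the NCD and at 109, 111 and 105 CPM on the HFD. All 3 HFD libraries were below all 3 NCD libraries, but the difference was small, with a log2 fold change of -0.092 ± 0.10 (SE, unadjusted p = 0.376).

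In the thioredoxin and glutaredoxin system, which returns protein disulfides to thiols, the 6 genes had log2 fold changes from -0.066 in Glrx to 0.11 in Glrx2. Txn1, cytosolic thioredoxin, stood at 135, 146 and 109 CPM on the NCD and at 132, 137 and 150 CPM on the HFD. The groups overlapped, NCD replicate 3 was the lowest, and the log2 fold change was 0.10 ± 0.12 (SE). Txn2 and Txnrd2, the mitochondrial thioredoxin and its reductase, had log2 fold changes of 0.017 and 0.065. Txnrd1, the cytosolic reductase, was at 34.0 CPM on average on both diets, with an interval of 0.801 to 1.24-fold. The smallest unadjusted p of the 6 genes was 0.349.

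The highest and lowest values of the members were not spread evenly over the libraries. HFD replicate 3 held the highest value of 18 of the 39 members (46.2%), against 26.2% of all genes tested, and NCD replicate 3 the lowest value of 13 (33.3%), against 21.4%. Without NCD replicate 3, 0 members were higher on the HFD at an unadjusted p under 0.05 and 1, Cat, was lower. Without HFD replicate 3, 0 were higher and 0 were lower. Without NCD replicate 2, 5 were higher (Mt3, Gsta4, Gstm5, Gpx4 and Prdx3).

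**Figure D4:**
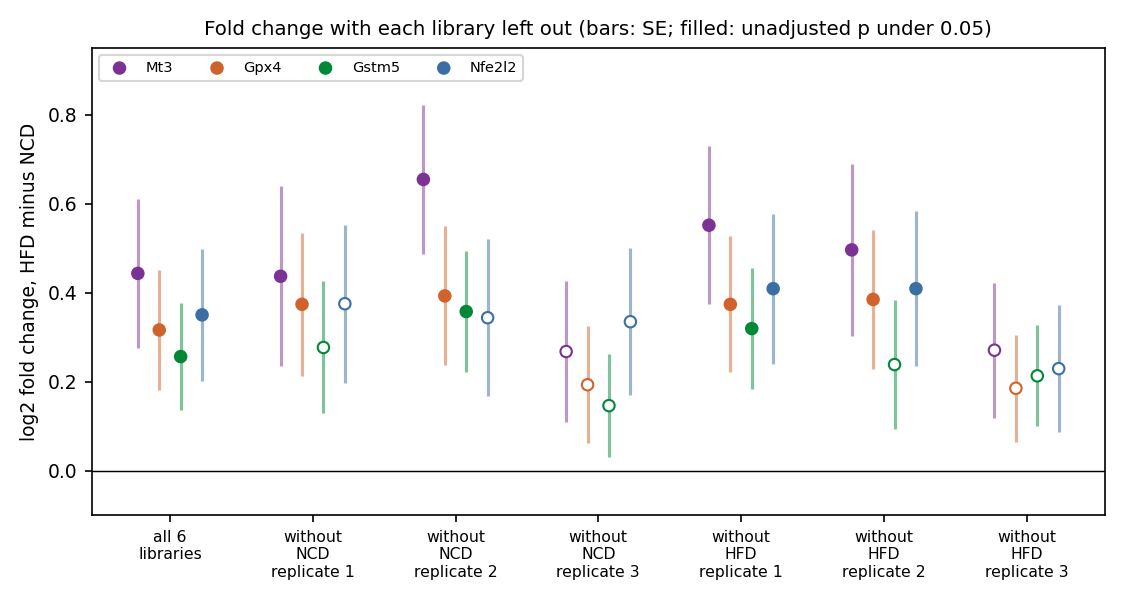
Log2 fold change of Mt3, Gpx4, Gstm5 and Nfe2l2 with all 6 libraries and with each library left out in turn, with bars of 1 SE from edgeR and filled points where the unadjusted p was under 0.05. All 4 points are open without NCD replicate 3 and without HFD replicate 3, and all stay above 0.

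HFD replicate 3 also differed from the other libraries by transcript length. Of the 12733 tested genes with an annotated length, 584 had a longest protein-coding transcript of up to 1000 bases. The median deviation of these 584 genes from their mean over the 6 libraries, as log2(CPM + 1), was 0.23 in HFD replicate 3 and -0.068 in NCD replicate 3. Of the 584, 5.65% were higher on the HFD at an unadjusted p under 0.05, against 1.68% of all genes. Their median log2 fold change was 0.089, and -0.0068 without HFD replicate 3. There were 8 members in this class, Sod1, Gpx4, Prdx4, Gstm5, Gstp1, Gsta4, Mt2 and Mt3, with a median log2 fold change of 0.26. That median was 0.20 without HFD replicate 3 and 0.14 without NCD replicate 3. The 31 members whose longest transcript was over 1000 bases had a median of 0.014. The split depends on the transcript chosen, since some of these 31 have a median transcript under 1000 bases. Mt1, for example, has a longest transcript of 1085 bases and a median of 633, and Prdx1 has 2294 and 661. Of the 4 members with an unadjusted p under 0.05, Mt3 (536 bases), Gstm5 (945) and Gpx4 (995) were short, and Nfe2l2 (2475) was not. The part of transcript length in these values was not tested.

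**Figure D5:**
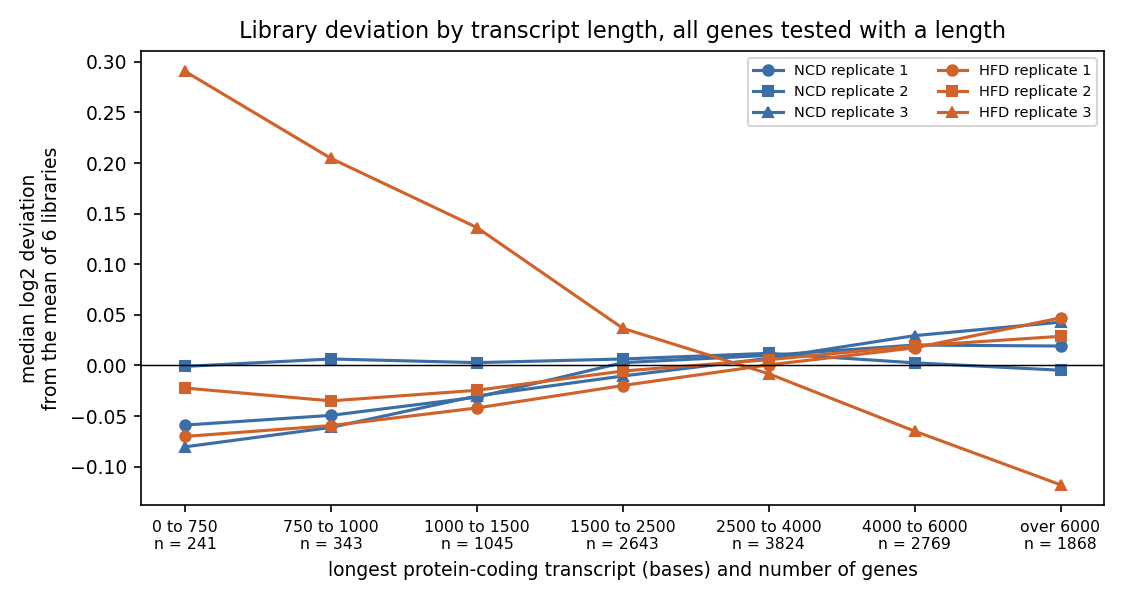
Median deviation of each library from the mean of the 6, as log2(CPM + 1), in 7 classes of genes by the length of the longest protein-coding transcript. HFD replicate 3 falls from 0.29 in genes of up to 750 bases to -0.12 in those over 6000, and the other 5 libraries stay between -0.080 and 0.047.

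The wider lists around these genes held 164 genes, of which 137 were tested. At an unadjusted p under 0.05, 3 (2.19%) were higher on the HFD, against 1.68% of all genes tested, and 5 (3.65%) were lower, against 2%. In these lists 0 genes had an adjusted p under 0.05, and the median log2 fold change was 0.010. The 3 higher genes were Ccs, Atox1 and Fth1. Ccs, the copper chaperone of SOD1, stood at 12.8, 13.4 and 14.5 CPM on the NCD and at 15.5, 20.1 and 18.7 CPM on the HFD, with no overlap and a log2 fold change of 0.42 ± 0.16 (SE, unadjusted p = 0.0213). Atox1, which hands copper to export pumps, stood at 33.6, 39.3 and 39.9 CPM on the NCD and at 45.0, 42.3 and 55.6 CPM on the HFD, again with no overlap, with a log2 fold change of 0.34 ± 0.13 (SE, unadjusted p = 0.0235). Fth1, ferritin heavy chain, had a log2 fold change of 0.24 (unadjusted p = 0.0374), and 0.13 without HFD replicate 3 (unadjusted p = 0.163). Their adjusted p was 0.979.

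The 5 lower genes came from different lists. Slc1a1, a neuronal glutamate transporter that also brings in cysteine, stood at 57.0, 57.2 and 55.0 CPM on the NCD and at 45.1, 49.4 and 44.1 CPM on the HFD. The groups did not overlap, and the log2 fold change was -0.29 ± 0.11 (SE, unadjusted p = 0.0219). Abcc1, which exports glutathione conjugates, and Atp7a, a copper pump, also showed no overlap, with log2 fold changes of -0.44 and -0.38. Ggt7, of the gamma-glutamyltransferase family, had a log2 fold change of -0.70 with 24 to 86 counts per library, again with no overlap. Aox1, aldehyde oxidase, had 8 to 32 counts and a log2 fold change of -1.04 (unadjusted p = 0.0401). Their adjusted p was 0.979 too. Among 13 glucocorticoid responsive genes, 0 passed at an unadjusted p of 0.05 in either direction. The p-value of each of the 8 named genes was over 0.05 in at least 1 of the 6 fits that left out 1 library. These 8 genes were named for their unadjusted p, so a lack of overlap in them is not separate support. Over all genes tested, 4.27% showed no overlap and were higher on the HFD, and 4.56% showed none and were lower.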

How the data were processed

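Forebrain RNA of mice on the NCD or HFD was sequenced with a QuantSeq 3′ kit. The authors aligned reads to mm10 with Bowtie2 and counted unique and multiple alignments per gene with bedtools, and the deposited values are raw counts, 1 table per library. Tool versions, the annotation and the use of strand were not given in the sources used here. Samples were grouped by their titles. The members and lists were chosen with earlier results of these data known.

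Counts were tested with edgeR 4.0.16 in R 4.3.3 (TMM, filterByExpr with a minimum count of 10, quasi-likelihood test on diet, two-sided, Benjamini-Hochberg adjustment over 13771 genes). CPM used TMM library sizes. Standard errors were the log2 fold change over the square root of F. The study's quantile normalization was an alternative (limma 3.58.1), as were DESeq2 1.42.0, other scalings and filters, a replicate block and leaving out each library. On simulated data for this comparison, edgeR called 77% of 200 genes changed 2-fold among 13639 genes, with 7 unchanged genes called. It called 39% of 200 changed 1.5-fold among 13640, with 5 unchanged genes called. The simulated counts were drawn independently around 1 mean per gene, so they lacked the length shift of HFD replicate 3. The shares also depend on the 200 changed genes put in, and need not hold for the real counts.

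Named genes were every member, with all libraries shown for those with an unadjusted p under 0.05, no overlap, the 3 highest and 3 lowest fold changes, the most abundant of each role, the metallothioneins, Nfe2l2, Keap1, Gclc, Gclm, Hmox1 and Nqo1. Prdx3 and Gsta4 were added after their values were seen. Of the wider lists, genes with an unadjusted p under 0.05 were named. Positions, overlaps and lengths came from GENCODE M21 on GRCm38 (mm10). Shared 3′ stretches were 75-base words in the last 500 bases of transcripts, on both strands. Beside the genes named above for them, other members shared part of theirs with other genes. These were Sod2 (12.7%), Sod1 (12.2%), Gclm (9.7%), Prdx1 (8.45%), Prdx2 (8.0%), Gss (4.2%), Glrx2 (0.775%) and Txn2 (0.652%).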

Additional observations from a re-analysis of the deposited data

How the results depend on the processing

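In none of the 15 alternatives, which included DESeq2 and limma on quantile-normalized values, did a member have an adjusted p under 0.05, and none of the 4 members with an unadjusted p under 0.05 changed sign. The number of members higher on the HFD at an unadjusted p under 0.05 was 4, and it was 2 with library size alone, 2 with the replicate block and 0 to 5 with 1 library left out. The number lower was 0, and 0 to 1 with 1 library left out. The number past 1.5-fold was 0, and 0 to 1 with 1 library left out. Groups that did not overlap numbered 5, with 3 under library size alone and 6 to 11 with 1 library left out. Separation is easier with 2 libraries against 3, and in all genes tested the share rose from 8.83% to between 17.9% and 20.3%, so these counts cannot be set against 5. The median log2 fold change of the members stayed between 0.014 and 0.081. Of the values for single members, 564 stayed on their side of an unadjusted p of 0.05, and 55 of those, in 25 genes, changed sign with the p over 0.05 before and after. A further 17 were no longer past it and 3 were newly past it.

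Deviations from the group means correlated at -0.0389, 0.0313 and -0.0746 between same-numbered libraries of the diets. Between libraries of different numbers the correlations ran from -0.0638 to 0.0872. These values cannot show whether libraries of the same number were handled together, which the labels do not say. With the block, Mt3 and Nfe2l2 had an unadjusted p under 0.05, and Gpx4 (0.0685) and Gstm5 (0.0642) did not. Differences under about 1.5-fold were often out of reach of 3 libraries against 3, and for Hmox1 the counts were too few.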
